A study of Mus musculus with 3 samples.

Results

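Il10, Tgfb1, Ebi3 and Il12a, the genes of the suppressive cytokines IL-10 and TGF-beta1 and of both chains of IL-35, were followed in CD45+ cells of mouse colon. They are 4 of the 30905 genes in the deposited matrices and were taken by symbol. Their UMIs, the molecules counted once each by a molecular tag, were traced to the barcodes that carried them. C57BL/6 mice entered the model at 6 to 8 weeks of age, and the labels call them male. In the model azoxymethane (AOM), a colon carcinogen, was injected once into the peritoneum at 12 mg per kg, and 3 cycles followed of 7 days of 2.5% dextran sodium sulfate (DSS), an irritant of the colon lining, and 14 days of water. There was 1 library of each group: C from healthy colon, T1 from tissue bearing low-grade neoplasia of the epithelium and T3 from tissue bearing the high-grade form. Any handling of the healthy mice is not given in the labels, which also do not say how many mice gave each library, so mouse and condition cannot be told apart. A difference between libraries therefore has no replicate check, and all intervals below are exact 95% intervals that cover counting error only.

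IL-10 is a secreted dimer that acts through a receptor of the chains Il10ra and Il10rb and the transcription factor Stat3, and restrains myeloid and T cells in the gut. Regulatory T cells marked by Foxp3, other helper T cells, macrophages and some B and plasma cells are known to make it. TGF-beta1 is secreted in a latent form that carriers such as Lrrc32 (GARP) and integrins such as the one with the chain Itgb8 hold and release. Ebi3 and Il12a pair as IL-35, whereas Ebi3 with Il27 gives IL-27 and Il12a with Il12b gives IL-12, an inflammatory cytokine.

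After barcodes with under 200 genes or over 20% mitochondrial UMIs were left out, 6004, 6143 and 4543 barcodes remained in C, T1 and T3. They held 33247737, 34388762 and 14312176 UMIs, with medians of 4933, 5272 and 1803 per barcode. Ptprc, which encodes CD45, had a UMI in 88.8%, 86.9% and 75.2% of them. The T3 library stood apart: 1290 of its barcodes held at least 5 haemoglobin UMIs, against 10 in C and 4 in T1. Against the label that calls the mice male, Xist stood at 1284, 1196 and 1361 CPM (a gene's UMIs per 1000000 UMIs of the same barcodes) and genes of the Y chromosome had 0, 1 and 1 UMIs. Kept barcode sequences were shared 21 times between T1 and C, 15 between T3 and C and 20 between T3 and T1, and 0 of the shared ones carried Il10 in both libraries.

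Barcodes were put in classes by the genes they carried. CD3 barcodes had a UMI of Cd3d, Cd3e or Cd3g and none of Cd79a, and were split by Foxp3 into Foxp3 T barcodes (61, 254 and 79 in C, T1 and T3) and other T barcodes (1909, 1675 and 2190). Barcodes with both CD3 and Cd79a, called mixed, numbered 883, 719 and 472. B barcodes had Cd79a or Ms4a1 without CD3 (2638, 2967 and 1016). Plasma barcodes (72, 68 and 3), myeloid barcodes (23, 18 and 44) and barcodes with innate lymphoid markers (148, 88 and 34) were few. Of the regulatory T markers beside Foxp3, which sets the class, Ctla4 stood at 1642, 2071 and 1136 CPM, Ikzf2 at 512, 555 and 1056 CPM and Il2ra at 208, 216 and 300 CPM in Foxp3 T barcodes of C, T1 and T3. Since a Foxp3 cell can lack a Foxp3 UMI, other T barcodes can hold such cells too.

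Il10, on chromosome 1 from 131019845 to 131024974 on the plus strand (GRCm38, GENCODE), had 432 UMIs in C, 2267 in T1 and 96 in T3. That was 13.0, 65.9 and 6.71 CPM, in 75, 365 and 23 barcodes. T1 was highest and T3 lowest, and the 3 intervals did not overlap. The log2 ratio was 2.34 [2.19, 2.49] for T1 over C and −0.95 [−1.29, −0.63] for T3 over C. A gene was called where the ratio was at least 2-fold, with at least 100 UMIs over both libraries and an interval that leaves out no difference. By this rule Il10 was called higher in T1, as were 1.19% of the 10713 genes tested over all barcodes, with 2.27% lower. It was not called in T3, where 4.57% of genes were called higher and 6.97% lower. Without the barcode of most Il10 in each library the T3 ratio was −1.52, which would be called lower. Summed over a library, fewer Il10 cells and less Il10 RNA per cell cannot be told apart.

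CD3 barcodes held most of the Il10 of C and T1. In them Il10 stood at 33.9 CPM in C [30.6, 37.4], 140.0 in T1 [133.3, 146.8] and 5.13 in T3 [3.74, 6.86]. It was called higher in T1 by a log2 ratio of 2.05 [1.89, 2.21] over C, where 1.75% of 8947 genes were called higher. It was called lower in T3 by −2.72 [−3.20, −2.27], where 7.13% of 8683 genes were called lower. T3 was also called lower than T1, by −4.77 [−5.23, −4.34], as were 4.84% of genes. These are 384, 1684 and 45 UMIs in 46, 242 and 14 barcodes. Il10 UMIs lie in few barcodes, so they are not independent counts and the intervals are too narrow. After each barcode was thinned to 1000 UMIs, which left out 80, 55 and 374 shallower ones, 1.38% [0.901, 2.01] of CD3 barcodes of C, 8.06% [6.87, 9.38] of T1 and 0.422% [0.182, 0.830] of T3 had an Il10 UMI (2.34%, 12.5% and 0.617% unthinned). The same share in B barcodes, where both free RNA and B cells that make Il10 can give a UMI, was 0.0397%, 0.391% and 0.127%. The median depth was 5709, 6193 and 3757 UMIs in CD3 barcodes and 4619, 4949 and 2661 in B barcodes.

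**Figure D1:**
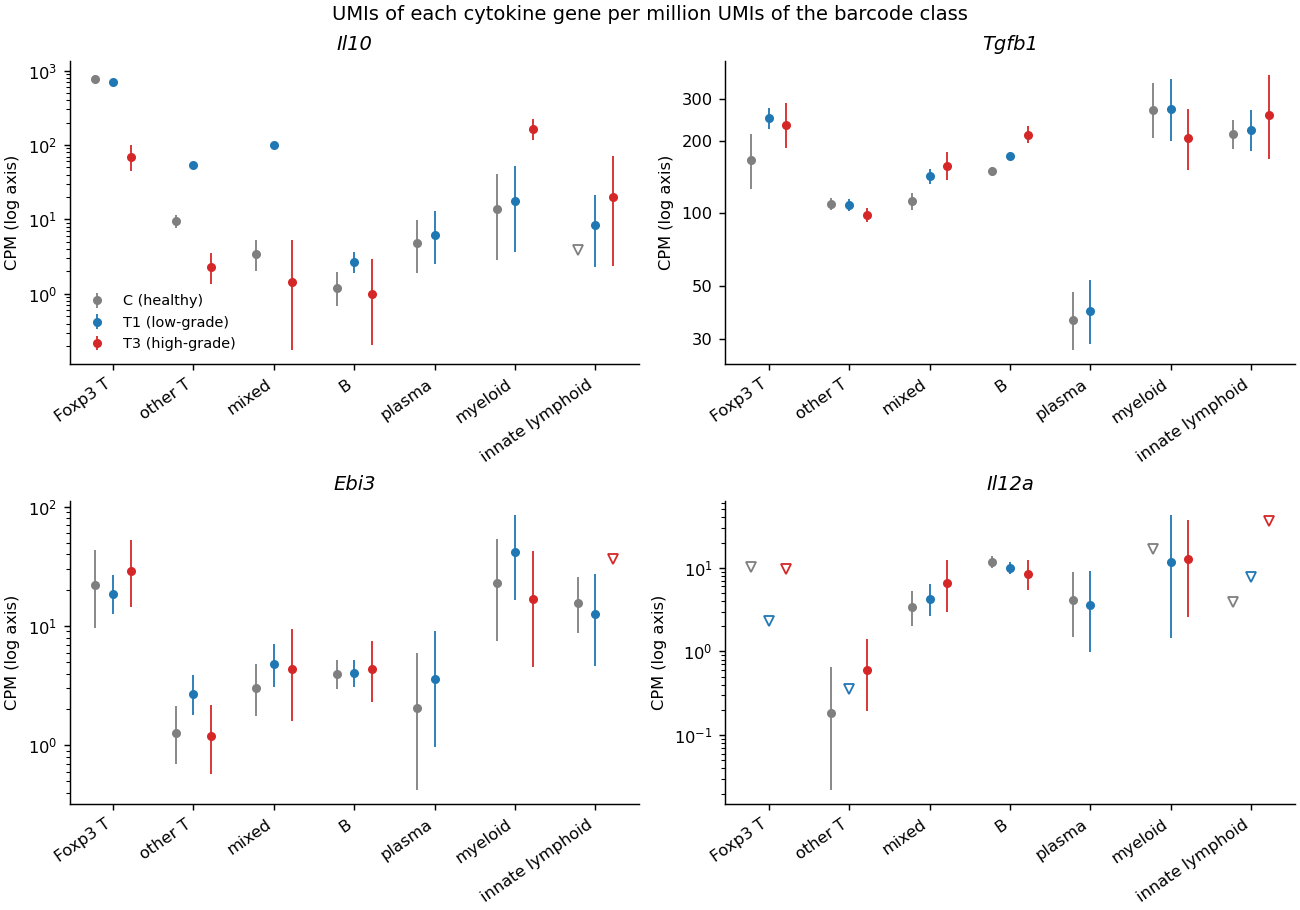
Level of each gene in a barcode class (vertical log axis, CPM) for the classes along the horizontal axis in C, T1 and T3; points are the values, bars exact 95% Poisson intervals, and open triangles the upper interval limit of a class with 0 UMIs. In Foxp3 T barcodes Il10 was at 778, 697 and 69.0 CPM in C, T1 and T3, while Tgfb1 stayed between 98.9 and 272 CPM outside plasma barcodes.

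Foxp3 T barcodes of T1 and C had similar Il10 levels, and those of T3 had far less. Il10 stood at 778 CPM in C [690, 875], 697 in T1 [657, 739] and 69.0 in T3 [45.1, 101]. The first intervals overlap, and T3 lies below both. The log2 ratio of T1 over C was −0.16 [−0.35, 0.03], which was not called, as against 2.32% of genes called higher and 1.18% lower. For T3 over C it was −3.50 [−4.14, −2.91] and was called lower, as were 2.16% of the 970 genes tested in this class (3.71% were called higher). Of Foxp3 T barcodes, 37.7% in C, 55.9% in T1 and 7.59% in T3 had an Il10 UMI. Without the barcode of most Il10 in each library (68 UMIs in T1 and 52 in C), the ratio of T1 over C was 0.043, and it was not called either.

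Foxp3 T barcodes were more numerous in T1 than in C, and other T barcodes of T1 held more Il10. Foxp3 T barcodes made up 3.096% [2.38, 3.96] of CD3 barcodes in C, 13.2% [11.7, 14.8] in T1 and 3.48% [2.77, 4.32] in T3. After thinning, 1.38%, 4.75% and 2.01% had a Foxp3 UMI. In other T barcodes Il10 stood at 9.38, 53.7 and 2.26 CPM. There it was called higher in T1 by 2.52 [2.21, 2.84], as were 1.08% of genes. It was called lower in T3 by −2.05 [−2.84, −1.34], as were 7.64% of genes. Per class, the order in C and T1 was Foxp3 T far above all others. In T1 mixed barcodes followed at 98.7 CPM [90.4, 108] and other T barcodes at 53.7 CPM [49.4, 58.4]. The intervals of plasma, myeloid and innate lymphoid barcodes overlapped one another in C and T1.

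The Il10 of a carrying barcode ranged widely. In Foxp3 T barcodes the median carrier held 9 UMIs in C, 5.5 in T1 and 3.5 in T3, with highest values of 52, 68 and 10. The counts were 23, 142 and 6 carriers. In B barcodes the median carrier held 1 UMI in every library, and the highest held 2, 4 and 1. Over all classes 14 barcodes of C, 69 of T1 and 2 of T3 had at least 10 Il10 UMIs. The 10 barcodes with most Il10 held 54.9% of it in C, 16.8% in T1 and 86.5% in T3.

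**Figure D2:**
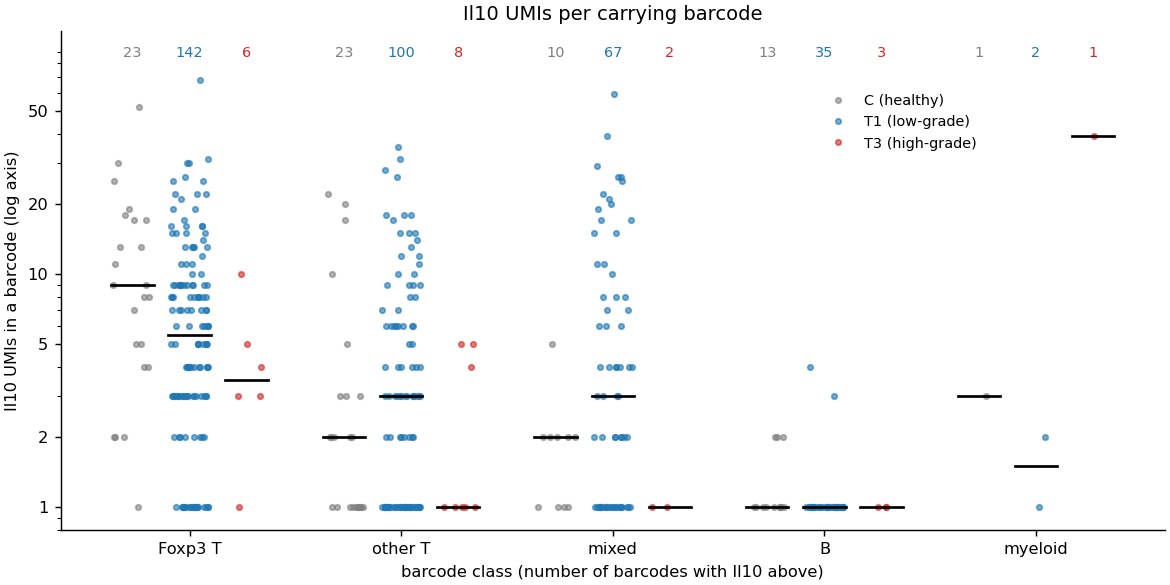
Il10 UMIs in each barcode that carried the gene (vertical log axis) by barcode class for C, T1 and T3; each point is a barcode, black lines are medians, and the numbers above are the barcodes with Il10. Carriers with 10 or more UMIs lie in Foxp3 T, other T and mixed barcodes, with 1 myeloid barcode of 39 UMIs in T3.

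In T3 a single myeloid barcode held 39 of the 96 Il10 UMIs. It had 122 UMIs of Lyz2 and 208 of Il1b, genes of macrophages and monocytes, and 0 of Foxp3, Cd79a and Cd3e. The 44 myeloid barcodes of T3 thus held 40.6% of its Il10, with 1 carrier, against 0.694% in C and 0.132% in T1. The next highest barcode of T3 had 10 UMIs and was a Foxp3 T barcode. The T3 library also had 5138 CPM of haemoglobin in CD3 barcodes, against 2.03 CPM in C and 0.582 CPM in T1. CD3 barcodes of T3 with under 5 haemoglobin UMIs had 5.21 CPM of Il10, close to the 5.13 CPM of all. S100a8, a neutrophil gene, stood at 374 CPM in CD3 barcodes of T3, against 1.06 CPM in C and 0.332 CPM in T1, and had a UMI in 19.9% of them. With barcodes that held an S100a8 UMI left out, as chosen after the values were seen, CD3 barcodes had 5.26 CPM of Il10 in T3 and 33.9 CPM in C (−2.69 [−3.19, −2.22]).

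By origin, Foxp3 T barcodes held 65.0% of the Il10 UMIs of C, 49.6% of T1 and 27.1% of T3. The same barcodes held 1.09%, 4.69% and 2.63% of all UMIs. Other T barcodes held 23.8%, 24.7% and 19.8% of Il10 against 33.0%, 30.3% and 58.7% of all UMIs. B barcodes held 3.70%, 1.76% and 3.13% of Il10 against 40.1%, 43.3% and 20.9% of all UMIs. Mixed barcodes held 4.40%, 22.8% and 2.08% of Il10 against 16.9%, 15.2% and 9.61% of all UMIs. CD3 barcodes together held 88.9%, 74.3% and 46.9% of Il10, or 93.3%, 97.1% and 49.0% when mixed barcodes are added.

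**Figure D3:**
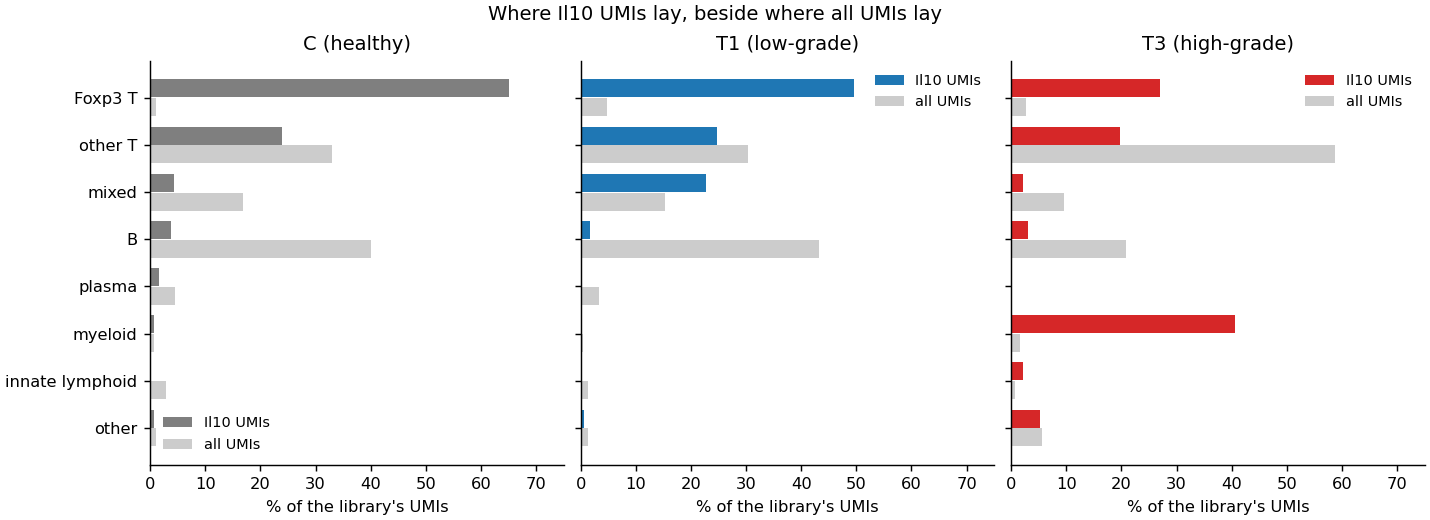
Share of a library's Il10 UMIs (coloured bars) and of all its UMIs (grey bars) that lay in each barcode class, in percent along the horizontal axis, for C, T1 and T3. Foxp3 T barcodes held 65.0%, 49.6% and 27.1% of Il10 with 1.09%, 4.69% and 2.63% of all UMIs, and the longest Il10 bar of T3, the myeloid class, rests on 1 barcode.

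Mixed barcodes of T1 that carried Il10 held more CD3 and fewer Cd79a UMIs than those without it. Il10 in mixed barcodes was at 3.38, 98.7 and 1.45 CPM. It was called higher in T1 by 4.87 [4.21, 5.61], as were 1.87% of genes in this class. The 67 mixed carriers of T1 had a median of 13 CD3 and 2 Cd79a UMIs, against 2 and 5 in the 652 mixed barcodes without Il10. A Foxp3 UMI was found in 37 of the 67 (55.2%), against 5.83% of those without Il10, and 33 of the 67 had a single Cd79a UMI. In C the 10 mixed carriers had medians of 2 CD3 and 10.5 Cd79a UMIs, against 1 and 5 in those without Il10. These counts are not adjusted for depth. Mixed barcodes of C had a median of 15269 UMIs with Il10 and 4998 without, and those of T1 7677 and 6047. Carriers of T1 with Foxp3 held 327 of the 517 Il10 UMIs of its mixed barcodes. Whether these are 2 cells in 1 droplet, free Cd79a RNA or cells with both genes was not tested.

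Regulatory B cells are in the title of the study, and Il10 in B barcodes was sparse. There were 16 UMIs in 13 barcodes of C, 40 in 35 barcodes of T1 and 3 in 3 barcodes of T3. In CPM that was 1.20 in C [0.687, 1.95], 2.69 in T1 [1.92, 3.66] and 1.004 in T3 [0.207, 2.93]. The intervals overlap, although the log2 ratio of T1 over C was 1.16 [0.29, 2.10] with too few UMIs for a call. Transcripts of T cells also lay in B barcodes: 5 of 8 T markers, with Cd3d, Cd3e and Cd3g at 0 by the rule, summed to 80.2, 75.1 and 180.0 CPM in C, T1 and T3. Foxp3 had 17 UMIs in B barcodes of T1 and 1 in those of C. Ctla4 stood at 11.1 CPM in T1 and 2.85 CPM in C, with a log2 ratio of 1.97 [1.45, 2.51], beside 1.91 [1.84, 1.99] in CD3 barcodes. Il2ra and Gzmb were further apart between the classes: the ratio of Il2ra was −0.02 [−0.68, 0.64] in B and 1.47 [1.24, 1.70] in CD3 barcodes, and that of Gzmb was 1.02 [0.58, 1.47] in B and 0.39 [0.32, 0.46] in CD3 barcodes. The receptor constant gene Trbc2 stood at 20.2 CPM in B barcodes of T1 and 23.7 CPM in those of C.

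Il10 was also set against T-cell transcripts within each class, a ratio chosen after the values had been seen. Per 1000 UMIs of Trac, Trbc1, Trbc2, Lck and Cd28, B barcodes of T1 had 35.8 Il10 UMIs and CD3 barcodes 36.2 (log2 ratio −0.02 [−0.51, 0.44]). With the receptor constant genes Trac, Trbc1 and Trbc2 alone the values were 69.1 and 46.2 (0.58 [0.09, 1.03]). In C the B barcodes had 14.98 and the CD3 barcodes 9.36 on the first set (0.68 [−0.14, 1.40]), and 26.1 and 11.6 on the second (1.18 [0.35, 1.89]). On the second set the intervals leave out no difference in T1 and C, and on the first they do not. Lck, of the first set only, stood at 31.2 CPM in B barcodes of T1 and 31.0 CPM in those of C, above Trbc2. What part of the Il10 in B barcodes came from free RNA was not tested.

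**Figure D4:**
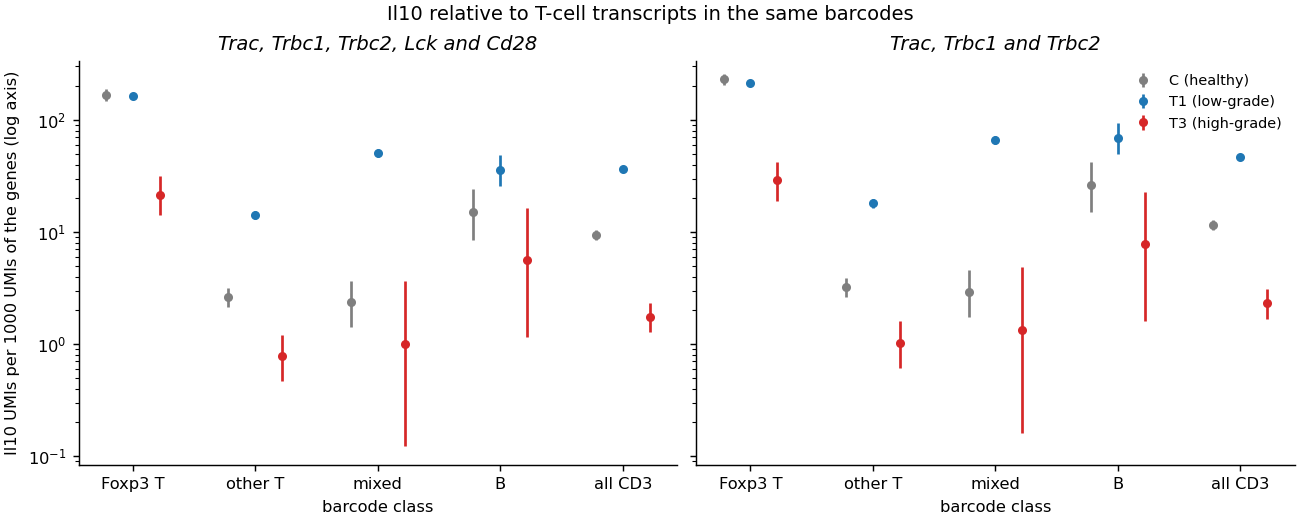
Il10 UMIs per 1000 UMIs of T-cell genes in the same barcodes (vertical log axis) by class for C, T1 and T3, on 5 T-cell genes at left and the 3 receptor constant genes at right; bars are exact 95% intervals for Il10 counts. B barcodes of T1 lie at 35.8 beside 36.2 in CD3 barcodes at left, and at 69.1 beside 46.2 at right.

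Il10 carriers among CD3 barcodes of T1 shared a set of other genes. Shares below are of barcodes thinned to 1000 UMIs, 238 with Il10 and 1636 without, at median depths of 5883 and 6316.5 UMIs before thinning. Carriers were chosen on all their UMIs. Foxp3 was found in 25.6% with Il10 [20.2, 31.7] and 1.71% without [1.14, 2.46]. The inhibitory receptor Ctla4 was found in 74.8% and 20.4%, and the costimulatory receptor Icos in 64.7% and 21.7%. Maf, a transcription factor that binds the Il10 gene, was found in 70.2% with Il10 and 19.0% without. Lag3, an inhibitory receptor, stood at 33.2% and 4.40%, and Gzmb, a granule protease, at 42.4% and 7.82%. For each of these genes the intervals of both groups were far apart.

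Other genes of the list were higher, lower or alike in carriers. Among those found more often with Il10, with intervals apart, were the interleukin-2 receptor chain Il2ra (13.9% and 3.30%), the inhibitory receptor Havcr2 (10.9% and 0.795%), the transcription factor Prdm1 (6.72% and 1.71%) and Cd4 (20.2% and 9.66%). Cd8a was found in 0 of 238 barcodes with Il10, which allows up to 1.54%, and in 7.95% of those without. Tcf7, a factor of naive and memory T cells, was found in 2.10% with Il10 and 20.4% without. Ikzf2, a factor of many regulatory T cells, stood at 18.5% and 17.9%, with overlapping intervals. The inhibitory receptors Pdcd1 (2.94% and 4.52%) and Tigit (1.68% and 0.489%) had overlapping intervals as well. By unthinned level Pdcd1 was lower with Il10, at 21.9 CPM against 45.5 CPM (log2 ratio −1.06 [−1.62, −0.54]). Tigit was higher, at 18.4 CPM against 5.96 CPM (1.63 [0.92, 2.30]). The type 17 genes Il17a (9.66% and 1.89%) and Ccr6 (5.46% and 0.917%) were also more often found with Il10. Tgfb1 was found in 18.9% of barcodes with Il10 [14.1, 24.5] and 10.6% without [9.13, 12.2].

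**Figure D5:**
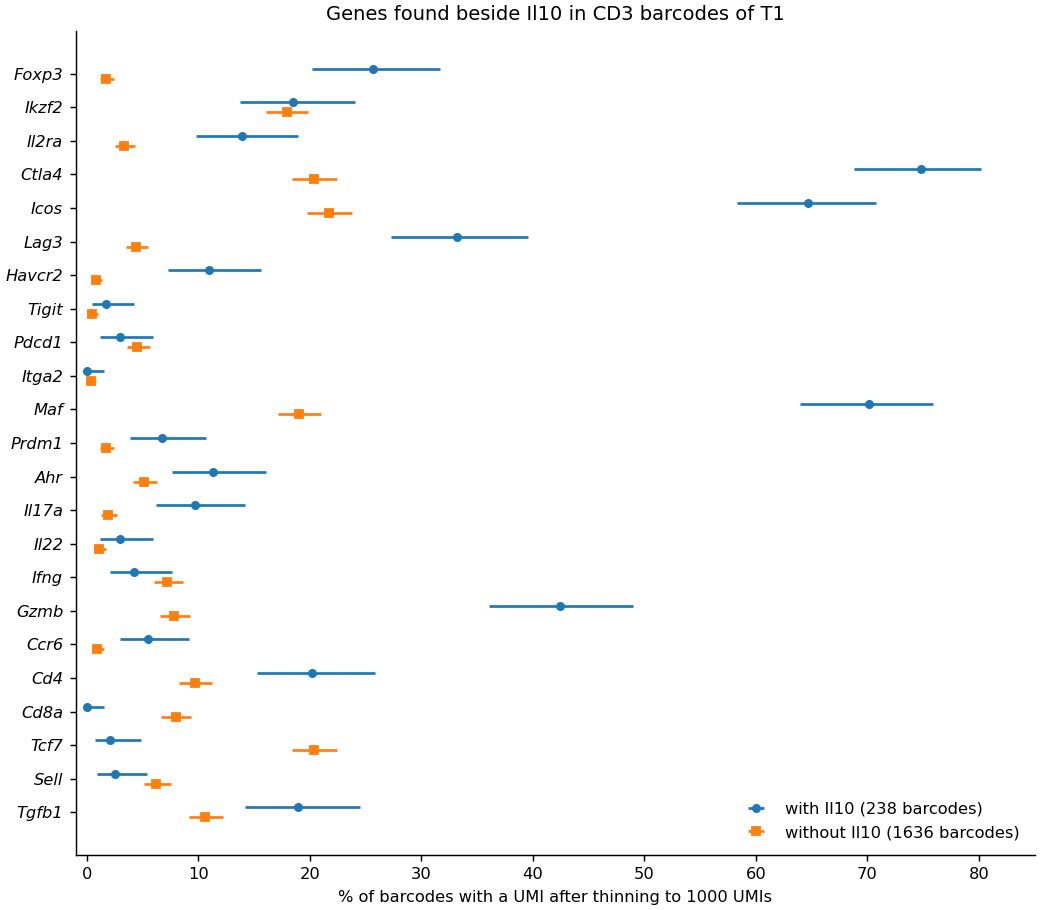
Share of CD3 barcodes of T1 with a UMI of each gene after thinning to 1000 UMIs (horizontal axis, percent), for 238 barcodes with Il10 above and 1636 without Il10 below in each row; bars are exact 95% Clopper-Pearson intervals. Ctla4, Maf, Icos and Gzmb lie far to the right with Il10, and Cd8a and Tcf7 to the left.

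The same genes were looked at within Foxp3 T and within other T barcodes. Within Foxp3 T barcodes of T1, Gzmb was found in 47.9% of 142 barcodes with Il10 [39.4, 56.4] and 18.3% of 109 without [11.6, 26.9]. Lag3 stood at 37.3% and 11.01%. Ikzf2 went the other way, with 20.4% [14.1, 28.0] with Il10 and 45.9% [36.3, 55.7] without. That was seen in T1 only. In Foxp3 T barcodes of C Ikzf2 stood at 26.1% and 32.4%, and in those of T3 at 66.7% (6 carriers) and 36.9%, both with overlapping intervals. Within other T barcodes, Il17a was found in 16.7% of 96 barcodes with Il10 [9.84, 25.6] and 2.03% of 1527 without [1.38, 2.87]. Before thinning, 21 of the 23 Foxp3 T barcodes of T1 with Il17a also carried Il10, beside 55.9% of all Foxp3 T barcodes of T1. That count is not adjusted for depth, and the median was 6254 UMIs with Il10 and 5458 without. After thinning, Il17a was found in 4.93% of the 142 with Il10 and 0 of the 109 without, with overlapping intervals. In C 2 of 5 Foxp3 T barcodes with Il17a carried Il10, beside 37.7% of all, and in T3 0 of 2. In CD3 barcodes of C, with 46 carriers, Ctla4 was found in 65.2% [49.8, 78.6] with Il10 and 7.92% [6.73, 9.25] without. T3 had only 13 thinned carriers, with wide intervals. There Ctla4 was found in 69.2% [38.6, 90.9] with Il10 and 11.6% [10.2, 13.2] without, Maf in 69.2% [38.6, 90.9] and 8.40% [7.18, 9.74], and Foxp3 in 30.8% [9.09, 61.4] and 1.81% [1.25, 2.52]. Unlike in CD3 barcodes of T1, Ikzf2 was found more often with Il10 in those of T3, at 38.5% [13.9, 68.4] and 6.32% [5.27, 7.52].

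The 33 thinned B barcodes of T1 with Il10 had intervals that overlap those of B barcodes without Il10 on every gene of the list for regulatory B cells. Cd1d1, Cd5 and Cd9, surface markers of such cells, were each found in 0 of 33, which allows up to 10.6%, against 1.73%, 0.396% and 0.972% of 2778 without. Cd24a was found in 18.2% [6.98, 35.5] with Il10 and 18.9% [17.5, 20.4] without. In C, with 12 thinned carriers, Ahr was the gene of the list with intervals apart, at 25.0% [5.49, 57.2] with Il10 and 2.51% [1.94, 3.21] without. Before thinning, the B barcodes of C had a median of 9713.5 UMIs with Il10 and 4691.5 without, and those of T1 5424 and 5055. Lars, the cytosolic leucyl-tRNA synthetase gene, was found in 3.03% [0.0767, 15.8] of B barcodes of T1 with Il10 and 2.23% [1.72, 2.85] without.

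Of 11 known regulators of the Il10 gene, 5 were called higher in CD3 barcodes of T1 over C and 0 lower, beside the 1.75% higher and 2.06% lower of all genes. The median log2 ratio of the list was 0.32, against −0.07 over all genes tested. Maf stood at 416 CPM in T1 and 149 CPM in C (1.48 [1.40, 1.56]). Prdm1, Batf, Irf4 and Bhlhe40, further transcription factors, had log2 ratios from 1.05 to 1.36. The list was not split into factors that raise Il10 and factors that lower it, so its count gives no direction for Il10. Among Foxp3 T barcodes 1 of 10, Prdm1, was called higher in T1 (1.67 [0.70, 2.83]) and 0 lower. Of all genes tested in that class 2.32% were called higher and 1.18% lower. In T3 over C, 0 of 11 were called higher and 2 lower in CD3 barcodes, beside the 2.94% and 7.13% of all genes. These were Ahr, the receptor for aryl hydrocarbons, at −2.30 [−2.57, −2.05], and Tbx21 at −1.94 [−2.36, −1.54]. Maf was at 167 CPM in T3 (0.17 [0.06, 0.27]), which was not called.

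Neither chain of the IL-10 receptor was called in CD3 barcodes. Il10ra stood at 12.0, 11.8 and 12.9 CPM in C, T1 and T3, and Il10rb at 42.8, 34.4 and 27.5 CPM. Of 8 genes of the receptor and its signal, Nfil3 alone was called higher in T1 (85.4 CPM, against 34.0 CPM in C), and Socs3, a feedback inhibitor of cytokine signals, alone in T3 (218 CPM, against 95.8 CPM in C). Of all genes 1.75% were called higher in T1 and 2.94% in T3. Among relatives of Il10, Il22 was called higher in T1, with 542 UMIs in T1 and 24 in C (4.41 [3.82, 5.07]). Il19, Il20 and Il24 had 0 UMIs in CD3 barcodes of all 3 libraries.

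Tgfb1, on chromosome 7 from 25687002 to 25705077 on the plus strand, was found in every class, with small differences between libraries. It had 4251, 5138 and 1953 UMIs, or 128 CPM in C, 149 in T1 and 136 in T3. The log2 ratio was 0.22 [0.17, 0.28] for T1 over C and 0.09 [0.02, 0.17] for T3 over C, and neither was called. Its UMIs were spread out, with 2.12%, 2.18% and 4.45% in the 10 barcodes of most Tgfb1. CD3 barcodes held 29.6%, 29.8% and 47.0% of them and B barcodes 46.8%, 50.04% and 32.6%. These shares follow the classes' shares of all UMIs more closely than those of Il10 do.

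In B barcodes Tgfb1 stood at 149 CPM in C [143, 156], 173 in T1 [166, 179] and 213 in T3 [197, 230]. The 3 intervals were apart, and the log2 ratio of T3 over C, 0.51 [0.38, 0.64], was under 2-fold. In CD3 barcodes it stood at 111, 127 and 105 CPM. Foxp3 T barcodes had 166 CPM in C [127, 214], 249 in T1 [225, 274] and 233 in T3 [187, 288], above the other T barcodes at 109, 109 and 98.9 CPM. Myeloid barcodes had 270, 272 and 205 CPM and innate lymphoid ones 214, 222 and 257 CPM, with intervals that overlap. Plasma barcodes were lowest, at 36.1 CPM in C and 39.4 CPM in T1, and had 0 UMIs in the 3 plasma barcodes of T3. No class gave a call.

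Genes that hold and release latent TGF-beta were in part called, unlike Tgfb1. Of 9 such genes 5 were tested in CD3 barcodes, and 2 were called higher in T1 over C and 0 lower, beside the 1.75% higher and 2.06% lower of all genes, with a list median of 0.62 against −0.07 over all genes. Lrrc32 stood at 2.03, 11.6 and 9.58 CPM in C, T1 and T3, and was called higher in T1 (2.51 [1.87, 3.21]) and in T3 (2.24 [1.56, 2.97]). Itgb8 stood at 1.499, 8.56 and 3.65 CPM and was called higher in T1 (2.51 [1.77, 3.35]). Both had their highest level in Foxp3 T barcodes, where Lrrc32 had 36.0, 60.8 and 106 CPM and Itgb8 11.1, 42.2 and 50.4 CPM. Nrros, a carrier of TGF-beta1 in myeloid cells, had 160, 160 and 105 CPM in myeloid and 71.6, 74.5 and 100 CPM in B barcodes. Of the 57 Foxp3 T barcodes of T1 with Lrrc32, 37 (64.9%) also had Tgfb1, close to the 64.6% of all Foxp3 T barcodes of T1.

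Receptors and signal proteins of TGF-beta gave no call in T1, of 11 tested in CD3 barcodes. Of all genes 1.75% were called higher there and 2.06% lower. In T3, 2 of 11 were called higher over C and 0 lower, beside the 2.94% and 7.13% of all genes: Tgfbr3, the betaglycan receptor (1.09 [0.73, 1.45]), and Smurf1, a ubiquitin ligase (1.24 [0.84, 1.64]). Tgfbr2 stood at 88.3, 94.2 and 143 CPM. Of 6 genes that TGF-beta is known to induce in lymphocytes, Itgae, the alpha E integrin of tissue-resident T cells, stood at 110, 59.4 and 23.3 CPM and was called lower in T3 (−2.24 [−2.46, −2.02]). Ldlrad4 was also called lower in T3 (−1.01 [−1.22, −0.80]). Tgif1 was called higher in T1 (1.39 [1.25, 1.53]) and in T3 (1.12 [0.97, 1.27]). T1 and T3 were both set against the same C library. Itgae did not follow that order in Foxp3 T barcodes, with 127, 158 and 172 CPM. In B barcodes Pmepa1, a feedback inhibitor, was called higher in T1 (1.32 [1.09, 1.54]), as were 0.284% of 8800 genes (1.93% were called lower). In B barcodes of T3 over C, where 2.99% of genes were called higher and 3.84% lower, Smad3, which carries the TGF-beta signal, was called higher (1.13).

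Ebi3, on chromosome 17 from 55952640 to 55957022 on the plus strand, was rare in all libraries. It had 116, 164 and 47 UMIs, or 3.49 CPM in C, 4.77 in T1 and 3.28 in T3, and 88.2%, 88.8% and 74.3% of its carriers held a single UMI. Foxp3 T barcodes had 22.2 CPM in C [9.56, 43.7], 18.6 in T1 [12.6, 26.6] and 29.2 in T3 [14.6, 52.2], on 8, 30 and 11 UMIs. These intervals overlap, and they lie above those of other T barcodes at 1.27, 2.69 and 1.19 CPM. B barcodes had 3.98, 4.03 and 4.35 CPM. Myeloid barcodes had 22.9, 41.4 and 16.7 CPM on 5, 7 and 4 UMIs.

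In CD3 barcodes Ebi3 stood at 1.94, 4.82 and 2.39 CPM. The log2 ratio of T1 over C was 1.31 [0.58, 2.09], on 58 and 22 UMIs, too few for a call. With mixed barcodes added it was called higher in T1 (1.06 [0.50, 1.65]), on 83 and 39 UMIs, where 1.71% of genes were called higher. In Foxp3 T barcodes, which were more numerous in T1, the ratio was −0.25 [−1.41, 1.08]. Of 25 Foxp3 T barcodes of T1 with Ebi3, 13 (52.0%) also carried Il10, beside 55.9% of all Foxp3 T barcodes of T1.

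Il12a, on chromosome 3 from 68690644 to 68698547 on the plus strand, lay mostly in B barcodes. It had 182, 178 and 43 UMIs, and B barcodes held 85.2%, 83.7% and 58.1% of them against 40.1%, 43.3% and 20.9% of all UMIs. In B barcodes it stood at 11.6 CPM in C [9.88, 13.6], 10.0 in T1 [8.46, 11.7] and 8.36 in T3 [5.41, 12.3], with overlapping intervals. Over all barcodes the log2 ratio of T3 over C was −0.87 [−1.38, −0.38], and T3 had 22.4% of its barcodes in the B class against 43.9% in C. CD3 barcodes had 2, 0 and 5 UMIs. Foxp3 T barcodes had 0 UMIs in each library, which allows up to 10.2, 2.29 and 9.79 CPM.

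Chains that pair as cytokines were seldom in the same barcode. Ebi3 and Il12a, the chains of IL-35, were found together in 3 barcodes of C, 0 of T1 and 0 of T3, out of 102, 143 and 35 with Ebi3 and 156, 144 and 38 with Il12a. In C that is 2.94% of barcodes with Ebi3, close to the 2.60% of all barcodes with Il12a. All barcodes of T1 and T3 had Il12a in 2.34% and 0.836%. Il27 was found in 2, 1 and 1 barcodes and Il12b in 1, 1 and 0, and 0 barcodes held Ebi3 with Il27 or Il12a with Il12b. Most carriers held a single UMI of their gene, so cells that express both chains would mostly not be detectable at this depth. Among IL-12 family receptors 0 of 6 were called in T1, beside the 1.75% higher and 2.06% lower of all genes. In T3 Il12rb1 (−2.44 [−3.12, −1.81]) and Il12rb2 (−2.64 [−3.46, −1.91]), the chains of the IL-12 receptor, were called lower, and Il6st, the shared chain gp130, higher (1.11 [0.93, 1.28]), beside the 7.13% lower and 2.94% higher of all genes.

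Other suppressive genes were called in part. Of 9 tested in CD3 barcodes of T1 over C, 3 were called higher and 0 lower, beside the 1.75% and 2.06% of all genes. Ctla4 stood at 592 CPM in T1 and 157 CPM in C, and Lag3 at 116 and 49.6 CPM. Areg, a repair factor that the files list under another symbol and that was named here by its gene ID, stood at 94.7 and 33.9 CPM. In T3 over C 1 of 8 was called higher and 4 lower, beside the 2.94% and 7.13% of all genes. Areg was at 102 CPM in T3 (1.60 [1.42, 1.77]), while Gzmb at 19.5 CPM, against 250 CPM in C (−3.68 [−3.91, −3.46]), and Lag3 at 12.2 CPM (−2.02 [−2.34, −1.72]) were called lower. Lgals1 and Fgl2, secreted suppressive proteins, were called lower too, at −1.46 and −2.10. In C, Gzmb had a UMI in 292 of 1909 other T and 24 of 61 Foxp3 T barcodes. The Gzmb of CD3 barcodes is therefore not that of regulatory T cells alone, and suppression was not measured. Areg stood at 299, 295 and 584 CPM in Foxp3 T barcodes.

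Genes most like each cytokine were taken by Pearson r of log2(CPM + 1) over 19 points, each a class in a library with at least 50 barcodes, among 7866 genes. The points share libraries and depth, and the r is a description. For Il10 these were Ccl20 (r = 0.895), Glrx (0.881), Ctla4 (0.881), Stx11 (0.858) and Ttc39c (0.846). For Tgfb1 they were Dennd5a (0.957), Birc3 (0.953), Zfp36l1 (0.945), Kdm6b (0.942) and Rara (0.936). For Ebi3 they were Rheb (0.860), Foxp3 (0.856), Itgav (0.848), Slc39a13 (0.830) and Capg (0.828). For Il12a they were Ly6d (0.929), Cd79a (0.924), Cd79b (0.908), Cd74 (0.902) and Pou2af1 (0.900). Foxp3 and Cd79a set the classes, so their likeness is in part built in.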

How the data were processed

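Cells positive for CD45 were sorted from colon and made into 10x Genomics 3′ libraries, per the labels' protocols. The deposited matrices hold raw UMI counts as whole numbers. The build GRCm38 and the tools Seurat 3.1.4, Cell Ranger 3.1.0 and CASAVA 1.8 stand in the submitters' processing notes, with no roles, and further settings were not given in the sources used here. The lowest deposited barcode had 500 UMIs. UMIs were summed per barcode class and library and divided by the class total (CPM), with exact Poisson, Clopper-Pearson and conditional binomial intervals (scipy 1.17.1). With 1 library per group no test between groups was possible. The calling rule was tested on simulated counts drawn independently (Poisson). Il10 UMIs lie in few barcodes, so that simulation cannot show how well the intervals hold for Il10. Shares were compared after thinning to 1000 UMIs. Barcodes without CD3 needed 3 of 5 plasma, 3 of 10 myeloid or 2 of 8 innate lymphoid genes for those classes. Genes are named by fixed lists: the 4 cytokine genes, 10 pathway lists, 2 lists for Il10 carriers, class markers and the 5 genes most like each cytokine gene. T-cell genes in B barcodes and the ratio to T-cell genes were chosen after values were seen. Members and lists were chosen with earlier results of these data known. No doublets were removed in the values reported. Scrublet (scanpy 1.11.5) called 69, 3 and 1 doublets in C, T1 and T3, or 1.15%, 0.0488% and 0.0220%, and so did not work in T1 and T3. Whether it found most doublets of C, where 883 barcodes were mixed, was not tested. Alternatives stand in the closing section. One gene of the regulator and co-detection lists is not reported here, and the counts and medians of those lists leave it out.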

Additional observations from a re-analysis of the deposited data

Results flagged for a closer look

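Il10 in CD3 barcodes moved in opposite directions in the libraries of neoplasia. The log2 ratio was 2.05 for T1 over C and −2.72 for T3 over C. Both share the C library, each is 1 library against another, and the difference was not tested. CD3 barcodes of C, T1 and T3 had median depths of 5709, 6193 and 3757 UMIs, and the thinned shares of barcodes with Il10, at 1.38%, 8.06% and 0.422%, lie in the same order as the CPM.

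Il10 was also present in barcodes that the filter left out. In T1 2423 such barcodes held 61 Il10 UMIs in 40 barcodes, or 21.6 CPM [16.5, 27.8], against 1.78 CPM [0.486, 4.57] in the 1899 left out of C. In T3 the 1236 left-out barcodes had 1.26 CPM. These barcodes enter no other result, apart from the recomputed values that used all deposited barcodes. The level in T1 lay above that in C.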

How the results depend on the processing

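Of 242 recomputed values over 31 results, 222 stayed close to the value reported (within its counting interval), 20 moved and 0 called ratios changed sign. Some settings could hardly move a value. CD3 barcodes with 5 or more haemoglobin UMIs numbered 0 in C and 0 in T1. Leaving out barcodes with S100a8 kept 1967 of 1970 CD3 barcodes of C and 1926 of 1929 of T1. A result on few UMIs has a wide interval, so its recomputed values seldom count as moved. Where a mixed barcode needed 2 UMIs of CD3 and of Cd79a, the log2 ratio of Il10 in CD3 barcodes, T1 over C, was 2.31 and these barcodes held 85.4% of the Il10 of T1. Where Ms4a1 counted beside Cd79a, they held 67.4%. With mixed barcodes added, as chosen after the values were seen, they held 97.1% in T1 and 93.3% in C. The mean of each barcode's own CPM gave Il10 ratios of −0.42 in Foxp3 T barcodes of T1 over C and of 2.12 (T1) and −1.43 (T3) over C in all barcodes. The T3 ratio is then past the 2-fold limit, as is −1.52 without the barcode of most Il10. It gave 0.32 for Tgfb1 in CD3 barcodes of T1. In Foxp3 T barcodes, also chosen afterwards, the T1 ratio was 0.043 without the barcode of most Il10 and −0.37 where 2 Foxp3 UMIs were needed, which gave −4.36 for T3. Tgfb1 in CD3 barcodes of T3 over C, not called, was −0.084 and turned to 0.076 with mitochondrial, ribosomal and immunoglobulin UMIs left out of the total. The share of CD3 barcodes with Il10 was 2.34% in C and 12.5% in T1 without thinning, and 9.48% in T1 at 2000 UMIs. With receptor constant genes alone, Il10 per T-gene UMI in B over CD3 barcodes of T1 was 0.58. The causes were not tested. Removing Scrublet calls shows nothing for T1 and T3, where it called almost none, and took out only 69 barcodes of C. Ebi3 and Il12a over all barcodes, T3 over C, moved to 0.45 and −0.34 with the mean of each barcode's own CPM, neither called. No paired analysis was possible because each group has 1 library. The 96 Il10 UMIs of T3, and 3 in its B barcodes, limit what its depth can show.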

Other observations

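Receptors of these cytokines differed in level between barcode classes. Il10ra, the ligand-binding chain of the IL-10 receptor, stood at 50.2, 55.1 and 81.0 CPM in B barcodes of C, T1 and T3 and at 119, 112 and 151 CPM in myeloid barcodes (26, 19 and 36 UMIs), against 12.0, 11.8 and 12.9 CPM in CD3 barcodes. Il27ra, a receptor chain for IL-27, stood at 63.6, 71.6 and 63.3 CPM in CD3 barcodes and 19.7, 16.5 and 21.7 CPM in B barcodes. Smad7, a feedback inhibitor of TGF-beta signals, differed little between B barcodes at 265, 289 and 324 CPM and CD3 barcodes at 286, 259 and 304 CPM.

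In Foxp3 T barcodes Tgfbr2, the ligand-binding TGF-beta receptor chain, stood at 77.5, 44.0 and 61.0 CPM on 28, 71 and 23 UMIs in C, T1 and T3, and Tgfbr1 at 58.2, 32.2 and 21.2 CPM on 21, 52 and 8 UMIs.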
